A study of Mus musculus with 12 samples.

Results

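The enzymes of gluconeogenesis and of glucose release were examined in neonatal mouse liver with and without Ppara. Their 9 genes, Mdh1, Pck1, Pck2, Fbp1, Slc37a4, G6pc, Slc2a2, Crtc2 and Foxo1, were taken by name from a list, and each was read from the probe set that is annotated to that symbol alone. All 9 were found, each with 1 such probe set, among 19938 genes read in the same way. Whole liver was taken at postnatal day 2 (P2) from 6 Ppara-/- and 6 Ppara+/+ suckling pups, with 3 males and 3 females of each genotype and 1 Affymetrix mouse gene array per pup. Heterozygous parents gave pups of both genotypes within a litter, and litters held 6 to 8 pups. Ppara-/- pups lack the gene in every cell of the body, so the liver is not the only tissue without it. The strain is labelled SV129, whereas the methods of the study describe a C57BL/6 background. By the methods, the 6 pups of a genotype were drawn from 3 litters, so some pups share a litter, and which ones is not in the labels.

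Gluconeogenesis makes glucose from lactate, alanine, glycerol and other small molecules. Carbon from mitochondria leaves as malate or aspartate, becomes oxaloacetate in the cytosol, and is turned into phosphoenolpyruvate, which then runs back up the glycolytic steps. Fructose-1,6-bisphosphatase bypasses the first committed step of glycolysis, and glucose 6-phosphate is at last carried into the endoplasmic reticulum, cleaved there and exported from the hepatocyte as glucose. The pathway is switched on at birth, when the supply of glucose across the placenta ends and fat-rich milk becomes the food. Glucagon drives it through cyclic AMP, CREB and the CREB coactivator CRTC2, and insulin restrains it by keeping FOXO1 out of the nucleus. PPARα, the product of Ppara, is a nuclear receptor that is bound by fatty acids and turns on genes of fatty acid oxidation.

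Signals are log2 values of the robust multi-array average (RMA), and levels of different genes cannot be set against each other because each comes from its own probes. The medians of the arrays lay between 7.16 and 7.20, and any pair of arrays correlated at 0.989 to 0.996. Ppara itself was lower in all 6 Ppara-/- livers, at 10.21 to 10.33, than in all 6 Ppara+/+ livers, at 10.98 to 11.27. No source used here says if the Ppara probe set covers the deleted stretch. The 10 measured hepatocyte markers averaged 13.56 to 13.60 in Ppara-/- and 13.57 to 13.62 in Ppara+/+ livers. Pancreatic acinar genes were highest on the Ppara-/- arrays of replicates 6 and 10, and Ppara+/+ replicate 7 had the lowest array weight, 0.42. Values without these arrays are given where they change a result.

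Of the 9 genes, Slc37a4 was the one that differed between genotypes by the adjusted p-value of the fit across all probe sets, and it was higher in Ppara-/- livers. Genes called higher in Ppara-/- livers made up 1.99% of all genes and genes called lower 1.12%, and 0 of the 9 were called lower. G6pc, Pck1, Slc2a2, Mdh1, Fbp1, Foxo1 and Crtc2 had differences above 0 that did not pass, and Pck2 had a difference below 0 that did not pass. The median log2 difference of the 9 was 0.13, against -0.01 over all genes, and 8 of the 9 lay above 0, against 45.1% of all genes. These shares are a description, since the 9 genes were chosen with earlier results of these data known.

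**Figure D1:**
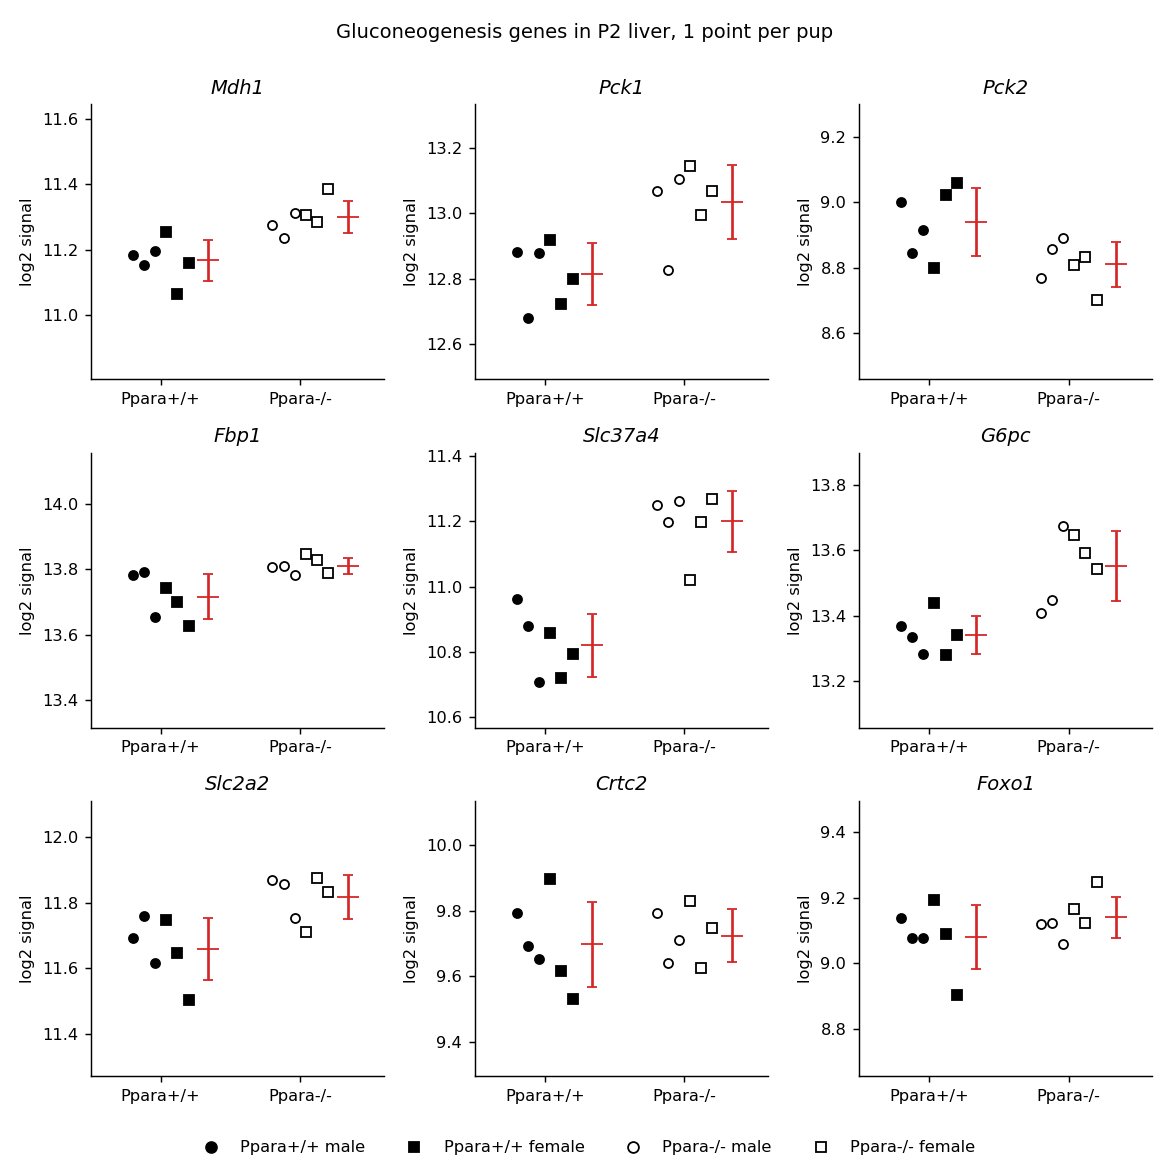
Log2 signal (vertical axes, each spanning the same log2 range) of the 9 genes in each P2 liver, with Ppara+/+ filled and Ppara-/- open, males as circles, females as squares, and the red mark giving the mean ± SD of 6 pups. Slc37a4 separates the genotypes fully, with Ppara-/- livers from 11.02 upward and Ppara+/+ livers up to 10.96, while the other 8 genes overlap.

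The first genes in the order of the pathway are those that form phosphoenolpyruvate. Mdh1, the cytosolic malate dehydrogenase (chromosome 11, 21556692 to 21571934, GRCm38.p6 as for the genes below), turns exported malate back into oxaloacetate. Its signal had a lowest value of 11.06, a median of 11.17 and a highest value of 11.25 in Ppara+/+ livers, and 11.24, 11.30 and 11.39 in Ppara-/- livers. Of the Ppara-/- livers, 5 lay above every Ppara+/+ liver, and the genotypes overlapped through replicate 5 and Ppara+/+ replicate 7. The log2 difference was 0.13 (SE 0.0409, 95% interval 0.04 to 0.22), with an adjusted p of 0.145 from limma.

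Pck1, the cytosolic phosphoenolpyruvate carboxykinase (chromosome 2, 173153073 to 173159274), catalyses the step from oxaloacetate that commits carbon to glucose. Its promoter is a textbook target of cyclic AMP, so the 250 bases before its annotated start are shown, from RefSeq on the plus strand at chr2:173152823-173153072. Capitals in this and the following promoters mark matches, on either strand, to TGACG, the core of a cyclic AMP response element (also within the full TGACGTCA), to TGTTTAC, letters that forkhead factors such as FOXO1 are known to read, or to the related TGTTTTG of insulin response elements, to AGGTCA, the repeat unit of nuclear receptor sites, or to TATAAA.
Pck1: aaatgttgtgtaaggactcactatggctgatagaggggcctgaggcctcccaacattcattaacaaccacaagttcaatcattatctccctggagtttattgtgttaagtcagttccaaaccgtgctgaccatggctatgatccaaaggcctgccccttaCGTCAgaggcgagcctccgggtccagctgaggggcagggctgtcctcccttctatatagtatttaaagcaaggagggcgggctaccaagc
The window of Pck1 held 1 match, to TGACG on the opposite strand, 90 to 86 bases before the start. Pck1 signals were 12.68 at the lowest, 12.84 at the median and 12.92 at the highest in Ppara+/+ livers, and 12.83, 13.07 and 13.14 in Ppara-/- livers. Of 6 Ppara-/- livers, 5 were above every Ppara+/+ liver, and the exception, replicate 5, was lower than 3 of them. The means were 13.03 ± 0.11 and 12.81 ± 0.10 (SD, n = 6 each), a log2 difference of 0.22 with SE 0.062 (1.16-fold, 95% interval of the log2 difference 0.08 to 0.36). The adjusted p from limma was 0.105. Over the livers left out in turn it ran from 0.0427 to 0.228, and only the fit without replicate 5 passed. Without Ppara-/- replicates 6 and 10 the log2 difference was 0.18 and the adjusted p 0.295.

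Pck2, the mitochondrial phosphoenolpyruvate carboxykinase (chromosome 14, 55540263 to 55550020), does the same reaction inside mitochondria. Its signals were 8.80, 8.96 and 9.06 at the lowest, median and highest in Ppara+/+ livers and 8.70, 8.82 and 8.89 in Ppara-/- livers. All 6 Ppara-/- livers were below the Ppara+/+ median and 2 were below every Ppara+/+ liver. The log2 difference was -0.13 (SE 0.0548, 95% interval -0.25 to -0.01), with an adjusted p of 0.296 from limma. The difference between both carboxykinases within each liver was chosen after the values had been seen and is given as a description, with no test. Pck1 minus Pck2 ran from 3.97 to 4.37 in Ppara-/- and from 3.70 to 4.12 in Ppara+/+ livers, and its mean was 0.35 higher in Ppara-/- livers, a 1.27-fold shift of the cytosolic against the mitochondrial signal. Leaving out any 1 liver kept this shift between 0.32 and 0.40.

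Fbp1, fructose-1,6-bisphosphatase (chromosome 13, 62864753 to 62888298), varied least among the Ppara-/- livers. Its signals were 13.62, 13.72 and 13.79 at the lowest, median and highest in Ppara+/+ livers and 13.78, 13.81 and 13.85 in Ppara-/- livers. The Ppara-/- livers clustered at the upper end of the Ppara+/+ range, with 4 of them above it. The SD was 0.024 in Ppara-/- and 0.0679 in Ppara+/+ livers, and the log2 difference of 0.09 (SE 0.0387, 95% interval 0.01 to 0.18) had an adjusted p of 0.281 from limma.

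Release of glucose rests on a pair of proteins of the endoplasmic reticulum and on a transporter of the cell surface. Slc37a4 (chromosome 9, 44396946 to 44402966) carries glucose 6-phosphate into the endoplasmic reticulum, and its loss in people causes glycogen storage disease type Ib. The table of promoters holds 3 starts for it, and the window before the first, chr9:44396696-44396945 on the plus strand of GRCm38.p6, is shown because this was the gene that changed.
Slc37a4: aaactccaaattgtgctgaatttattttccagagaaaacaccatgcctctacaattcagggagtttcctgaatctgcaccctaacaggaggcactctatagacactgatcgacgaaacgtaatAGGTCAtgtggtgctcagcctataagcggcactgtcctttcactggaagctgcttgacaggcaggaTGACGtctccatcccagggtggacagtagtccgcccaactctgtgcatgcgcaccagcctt
This window held AGGTCA 127 to 122 bases and TGACG 61 to 57 bases before the start. The signal was 10.71 at the lowest, 10.83 at the median and 10.96 at the highest in Ppara+/+ livers, and 11.02, 11.22 and 11.27 in Ppara-/- livers. Every Ppara-/- liver lay above every Ppara+/+ liver, which was so for 2.88% of all genes, and 1.43% of all genes had every Ppara-/- liver below. The means were 11.20 ± 0.09 and 10.82 ± 0.10 (SD, n = 6 each), a log2 difference of 0.38 with SE 0.055 (95% interval 0.26 to 0.50) or 1.3-fold, with an adjusted p of 0.0031 from limma. Ppara-/- replicate 10 had the lowest value of its group, 11.02, and the next was 11.20. With replicates 6 and 10 left out together, the log2 difference was 0.41 and the adjusted p 0.0086.

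G6pc, the catalytic subunit of glucose-6-phosphatase (chromosome 11, 101367716 to 101377903), cleaves what Slc37a4 brings in. Its promoter is shown because CRTC2 and FOXO1 are textbook regulators of it, from chr11:101367466-101367715 on the plus strand of GRCm38.p6.
G6pc: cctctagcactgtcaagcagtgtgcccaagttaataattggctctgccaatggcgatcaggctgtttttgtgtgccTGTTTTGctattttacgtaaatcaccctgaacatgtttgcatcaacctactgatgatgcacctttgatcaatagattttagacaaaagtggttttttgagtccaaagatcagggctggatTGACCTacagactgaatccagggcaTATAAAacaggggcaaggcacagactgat
Here TGTTTTG lay 174 to 168 bases, AGGTCA on the opposite strand 54 to 49 bases and TATAAA 29 to 24 bases before the start. G6pc signals were 13.28, 13.34 and 13.44 at the lowest, median and highest in Ppara+/+ livers and 13.41, 13.57 and 13.68 in Ppara-/- livers. All Ppara-/- livers were above the Ppara+/+ median and 5 of 6 were above the highest Ppara+/+ liver, replicate 7. The means were 13.55 ± 0.11 and 13.34 ± 0.06 (SD, n = 6 each), a log2 difference of 0.21 with SE 0.0517 (1.16-fold, 95% interval of the log2 difference 0.10 to 0.32). The adjusted p from limma was 0.0623, and it was 0.0466 without Ppara+/+ replicate 7 and 0.0493 without Ppara-/- replicate 4. The 2 highest G6pc values, 13.68 and 13.65, were those of Ppara-/- replicates 6 and 10, the arrays with the highest pancreatic acinar signals. Without them the log2 difference was 0.16 and the adjusted p 0.173, and the part of pancreatic RNA in the G6pc signal was not tested.

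The difference Slc37a4 minus G6pc within each liver, likewise chosen after the values had been seen and not tested, was 0.17 higher on average in Ppara-/- livers. It ran from -2.63 to -2.16 in Ppara-/- and from -2.58 to -2.41 in Ppara+/+ livers, so the genotypes overlapped. The mean shift was 0.22 without Ppara-/- replicate 10 and 0.25 without replicates 6 and 10.

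Slc2a2 encodes GLUT2, the glucose transporter of the hepatocyte surface, which is also that of the pancreatic beta cell (chromosome 3, 28697903 to 28728361). Its signals were 11.50, 11.67 and 11.76 at the lowest, median and highest in Ppara+/+ livers and 11.71, 11.85 and 11.88 in Ppara-/- livers. Of the Ppara-/- livers, 4 were above every Ppara+/+ liver, and the 2 that were not, at 11.75 and 11.71, were replicates 6 and 10. The log2 difference was 0.16 (SE 0.0511, 95% interval 0.05 to 0.27), with an adjusted p of 0.166 from limma, and 0.20 without those replicates (adjusted p = 0.132). Islet markers were low on all arrays, with 8 of 9 below the array medians.

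Both regulators in the list differed little in signal. Crtc2, the CREB coactivator that is held in the cytoplasm by phosphorylation and moves to the nucleus after glucagon (chromosome 3, 90253858 to 90264125), had values of 9.53, 9.67 and 9.90 at the lowest, median and highest in Ppara+/+ livers and 9.63, 9.73 and 9.83 in Ppara-/- livers. The Ppara-/- livers lay wholly inside the Ppara+/+ range. The log2 difference was 0.03 (SE 0.065, 95% interval -0.11 to 0.17, adjusted p = 0.892 from limma). Foxo1, the forkhead factor that insulin excludes from the nucleus (chromosome 3, 52268337 to 52350109), had values of 8.90, 9.08 and 9.19 in Ppara+/+ and 9.06, 9.12 and 9.25 in Ppara-/- livers, in the same order. Of the Ppara-/- livers 1, replicate 12, was above all Ppara+/+ livers. The log2 difference was 0.06 (SE 0.052, 95% interval -0.05 to 0.17, adjusted p = 0.647 from limma), and it was 0.02 without Ppara+/+ replicate 9 and 0.04 without Ppara-/- replicate 12. Arrays read the RNA of these genes and not where their proteins are in the cell or how they are modified.

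**Figure D2:**
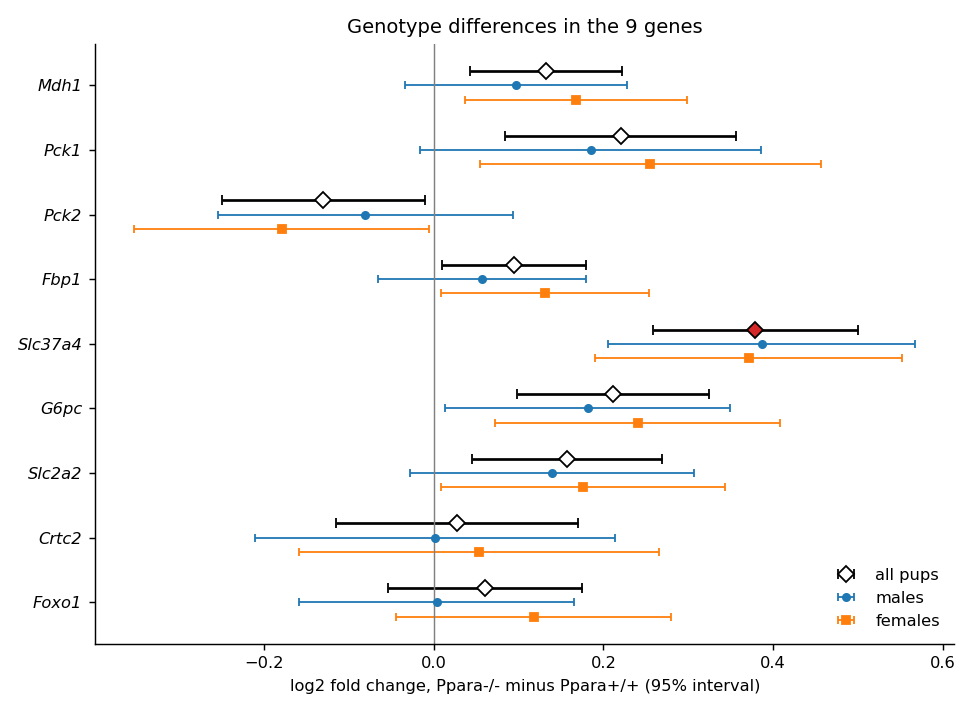
Log2 differences of the 9 genes between Ppara-/- and Ppara+/+ livers (horizontal axis) with their 95% intervals, for all pups (diamonds, filled red where the adjusted p is under 0.05), males (circles) and females (squares). Slc37a4, at 0.38, is the filled diamond, and its male and female values, 0.39 and 0.37, lie beside it.

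Promoter windows were in the table for 8 of the 9 genes, 10 windows in all, and neither the full element TGACGTCA nor TGTTTAC was found in any of them. The shorter core TGACG was in 3 of the 10 windows and in 17.8% of all 32851 promoter windows of the same length. The 3 were that of Pck1 and 2 of Slc37a4, whose first and second windows overlap. TGTTTTG was in the windows of G6pc and Pck2 and in 5.56% of all, AGGTCA was in those of Slc37a4, G6pc and Slc2a2 and in 14.0% of all, and TATAAA was in those of G6pc and the third start of Slc37a4 and in 12.4% of all. TGACGTCA was in 1.55% and TGTTTAC in 3.17% of all windows. These are matches of letters and not measured binding.

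The genotype differences were also compared between male and female pups, with 3 of each per genotype. None of the 9 genes had an interaction of genotype and sex, as was so for 0% of all genes by the adjusted p from limma. At an unadjusted p under 0.05, 0 of the 9 and 357 of all genes (1.79%) had one. The interaction of Slc37a4 was 0.02 (95% interval -0.24 to 0.27), an interval that leaves room for a sex difference in its response of that size. Within one sex, 0.321% of all genes were called higher in Ppara-/- females and 0.461% in Ppara-/- males, and none of the 9 was among them. The adjusted p of Slc37a4 was 0.101 in females and 0.085 in males. Sex itself called none of the 9, and 0.0401% of all genes.

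Variation among livers of one genotype was compared between the 9 genes. Deviations from the genotype mean gave 36 pairs of genes, 24 of them with a correlation above 0 and a median Pearson r of 0.22. All 8 pairs with Pck2 lay below 0, from -0.03 to -0.71, and 24 of the 28 pairs without Pck2 lay above 0. In 6 pairs the unadjusted p of an exact permutation test within genotypes was under 0.05, and after adjustment over the 36 pairs none passed. Pck1 and Mdh1 varied most closely by rank, with r = 0.69 (exact permutation p = 0.0179, adjusted p = 0.231) and Spearman's rho = 0.80 (exact permutation p = 0.0062, adjusted p = 0.225, n = 12), and r was 0.72 without the 2 livers farthest from the median. Crtc2 and Foxo1 had r = 0.72 (exact permutation p = 0.0192, adjusted p = 0.231) and rho = 0.54 (p = 0.0961 by the exact permutation test), and r fell to 0.39 without 2 livers. Pck2 and Foxo1 went opposite ways, with r = -0.71 (exact permutation p = 0.0124, adjusted p = 0.231) and rho = -0.57 (p = 0.0777 by the exact permutation test), and r was -0.47 without 2 livers. Slc37a4 and G6pc, partners in one system, had r = 0.04 (p = 0.924 by the exact permutation test).

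Profiles over all 12 livers were then compared with those of 19937 other genes. The measure was the root mean square difference of log2 signals after each gene's mean was removed. Genotype was not removed, so genes with a like genotype difference come out close. Closest to Slc37a4 was Plekha1, an adaptor that binds membrane phosphoinositides (0.0518). Next were Acly, ATP citrate lyase, which makes acetyl-CoA in the cytosol (0.0564), and Dlk1, an imprinted gene of fetal liver (0.0656). Slc37a4 had 0.209 about its own mean. The log2 differences of Plekha1, Acly and Dlk1 were 0.33, 0.34 and 0.36, beside 0.38 for Slc37a4 (adjusted p of 0.0049, 0.0048 and 0.0030 from limma for these 3 neighbours). Closest to Pck1 were the clock gene Per1 (0.0526), the salt-inducible kinase gene Sik1 (0.0653) and Lrrc75a (0.0663), against 0.146 for Pck1 itself. Per1 and Sik1 are textbook targets of CREB. The log2 differences of Per1, Sik1 and Lrrc75a, 0.23, 0.21 and 0.15, did not pass (adjusted p of 0.0901, 0.245 and 0.226 from limma). Closest to G6pc were Anxa5 (0.0451), Aoah (0.0479) and Rab31 (0.051), against 0.132 for G6pc itself. Their log2 differences, 0.15, 0.20 and 0.21, did not pass either (adjusted p of 0.185, 0.150 and 0.0893 from limma). A shared regulator or cell type was not tested for any of these genes. Among the members, Mdh1 ranked 23rd and G6pc 37th in likeness to Pck1, and G6pc ranked 653rd in likeness to Slc37a4.

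Around the 9 genes, 117 other genes of the pathway from 7 lists were measured. The lists were chosen with earlier results of these data known, so their counts are a description. From its arrays the study had already reported Pcx and Got1 as higher and Gpd2 as lower in Ppara-/- livers. Of the 117 genes, 10 were called higher and 4 lower in Ppara-/- livers, with a median log2 difference of 0.04 and 75 above 0. Over all genes, 1.99% were called higher and 1.12% lower, the median was -0.01, and 45.1% lay above 0. Of 18 measured genes of substrate entry, the steps that supply carbon, 5 rose and 2 fell. Got1, the cytosolic aspartate aminotransferase that returns aspartate to oxaloacetate, ran from 12.22 to 12.32 in Ppara+/+ and from 12.61 to 12.90 in Ppara-/- livers, a log2 difference of 0.43 (adjusted p = 3.1e-04). Ldhb, a lactate dehydrogenase subunit, rose by 0.45 (adjusted p = 0.0057), and a second probe set of it gave 0.29 (adjusted p = 0.189). Mpc1, a subunit of the mitochondrial pyruvate carrier, rose by 0.19 (adjusted p = 0.0049), and Pcx, pyruvate carboxylase, which makes oxaloacetate from pyruvate, rose by 0.19 (adjusted p = 0.0136). Slc25a11, which exchanges malate for oxoglutarate across the mitochondrial membrane, rose by 0.18 (adjusted p = 0.0358). The 2 that fell were Gpd2, the mitochondrial glycerol-3-phosphate dehydrogenase through which glycerol carbon enters (-0.35, adjusted p = 0.0463), and Me1, the cytosolic malic enzyme, which takes malate to pyruvate (-0.32, adjusted p = 0.0356). The second probe set of Me1 gave -0.39 and did not pass (adjusted p = 0.0575). The alanine aminotransferase genes Gpt and Gpt2 had log2 differences of 0.14 and 0.25 that did not pass (adjusted p of 0.225 and 0.113), and Mdh2, the mitochondrial malate dehydrogenase, one of 0.10 (adjusted p = 0.271).

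The reversible steps between phosphoenolpyruvate and fructose bisphosphate also lay above 0 in each of the 5 genes measured of 9 listed. Of these 3 rose, Aldoc, an aldolase, by 0.57 (adjusted p = 9.7e-04), Tpi1, triose phosphate isomerase, by 0.19 (adjusted p = 0.0318), and Pgk1, phosphoglycerate kinase, by 0.14 (adjusted p = 0.044). Aldoa and Pgam1 had 0.21 and 0.18 and did not pass (adjusted p of 0.0552 and 0.105). The other genes of this list are not analysed here. These enzymes serve glycolysis as well. Over all genes, 45.1% lay above 0 and 1.99% were called higher.

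Of 12 measured enzymes that run against gluconeogenesis, 0 were called, which was also so for 17 related isoforms of the 9 genes. Among the first, Pklr, the liver pyruvate kinase, had a log2 difference of 0.20 (adjusted p = 0.246), and Pfkl, phosphofructokinase, one of 0.01. Among the second, Slc37a3 and Slc37a1, relatives of Slc37a4, each had 0.17 (adjusted p of 0.0606 and 0.104), while G6pc3, the ubiquitous glucose-6-phosphatase, had 0.02. For Slc37a3 every Ppara-/- liver, from 9.59 upward, lay above every Ppara+/+ liver, up to 9.56, as was so for 2.88% of all genes.

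**Figure D3:**
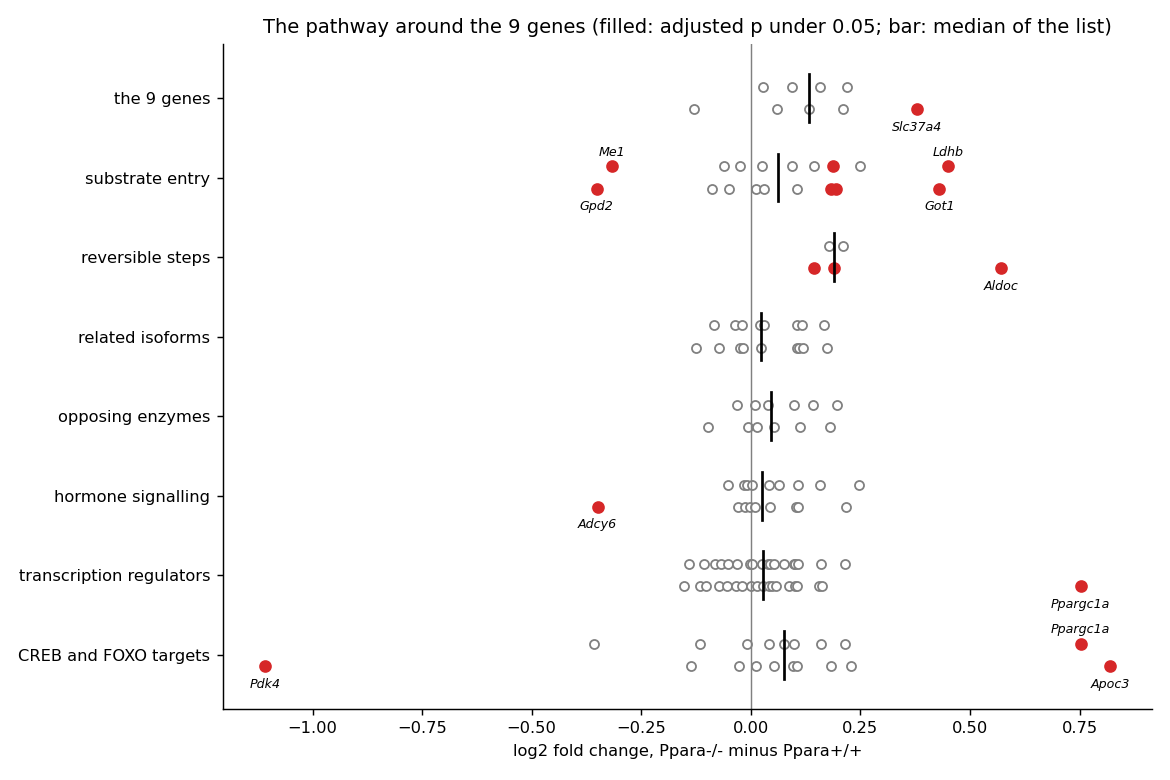
Log2 differences between Ppara-/- and Ppara+/+ livers (horizontal axis) of the 9 genes and of the genes of 7 lists around them (rows), 1 point per gene, filled red where the adjusted p is under 0.05, with a bar at the median of each list. Calls above 0 lie mainly in substrate entry and the reversible steps, and Ppargc1a, at 0.75, stands alone among the transcription regulators.

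Upstream of the pathway, 1 of 18 signalling genes and 1 of 37 transcription regulators were called, near the shares over all genes of 1.99% higher and 1.12% lower. Of the 18 genes of glucagon, adrenaline, insulin and glucocorticoid signalling, the 1 that fell was Adcy6, an adenylyl cyclase that makes cyclic AMP, at 8.87 to 9.05 in Ppara-/- and 9.24 to 9.41 in Ppara+/+ livers, a log2 difference of -0.35 (adjusted p = 5.1e-04). The glucagon receptor gene Gcgr had -0.01 and the insulin receptor gene Insr -0.05, and neither passed. The transcription regulator that rose was Ppargc1a, the coactivator PGC-1α that works with HNF4α and FOXO1 on Pck1 and G6pc, with a lowest value of 8.60, a median of 9.001 and a highest value of 9.05 in Ppara+/+ livers and 9.32, 9.69 and 9.93 in Ppara-/- livers. Every Ppara-/- liver was above every Ppara+/+ liver, and the log2 difference was 0.75 with SE 0.108 (1.68-fold, adjusted p = 0.0030). Its second probe set gave 0.71 (adjusted p = 0.0050). Creb1 had -0.03 and Hnf4a 0.03, and neither passed.

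Other genes that CREB or FOXO factors are known to act on had a median log2 difference of 0.07, with 13 of 19 measured above 0. Over all genes the median was -0.01 and 45.1% lay above 0. Of the 19, Ppargc1a and Apoc3 were called higher and Pdk4 lower. The shares over all genes were 1.99% higher and 1.12% lower. Apoc3, an apolipoprotein that slows the clearance of triglyceride, rose by 0.82 (adjusted p = 6.9e-04). Pdk4, the pyruvate dehydrogenase kinase that spares pyruvate and is also a target of PPARα, had a log2 difference of -1.11 (adjusted p = 3.3e-07). Igfbp1, which insulin represses through FOXO1, had 0.01 (adjusted p = 0.94), and Tat, tyrosine aminotransferase, had -0.14 (adjusted p = 0.463).

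Markers of other cells of the liver were read beside these results, since the RNA came from whole liver, where fewer cells of a type and less RNA per cell cannot be told apart. All 13 Kupffer cell markers had log2 differences above 0, with a median of 0.19 and none called, and their mean level was 10.53 to 10.68 in Ppara-/- and 10.30 to 10.64 in Ppara+/+ livers. All 12 endothelial markers were above 0, with a median of 0.13 and none called, at 10.11 to 10.23 against 9.98 to 10.14. Of 10 measured erythroid markers 1 was above 0, with a median of -0.17 and none called. Of 5 fetal hepatoblast genes 3 rose, Dlk1 by 0.36 (adjusted p = 0.0030), Peg3 by 0.32 (adjusted p = 4.8e-04) and Gpc3 by 0.26 (adjusted p = 0.0027). All 5 lay above 0, and their mean level was 12.75 to 12.83 in Ppara-/- and 12.57 to 12.61 in Ppara+/+ livers. Of 10 hepatocyte markers 1 fell, the PPARα target Fabp1, by 0.51 on the log2 scale (adjusted p = 1.0e-05). Over all genes, 1.99% were called higher and 1.12% lower, and 45.1% lay above 0. The part of any of these cell types in the differences of the 9 genes was not tested.

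All 12 pancreatic acinar genes had log2 differences above 0, with a median of 0.54 and none called, and 7 of them were below the array medians. Their mean level was 8.66 and 8.13 on Ppara-/- replicates 6 and 10, 6.53 to 7.09 on the other 4 Ppara-/- arrays, and 6.39 to 7.61 in Ppara+/+ livers. Averaged over the 9 genes, deviation from the mean of all livers ran from 0.02 to 0.09 in Ppara-/- livers and from -0.12 to 0.0039 in Ppara+/+ livers, and the highest Ppara+/+ value was that of replicate 7. This liver was also the Ppara+/+ liver with the most Kupffer signal, 10.64, and the least erythroid signal, 10.59.

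**Figure D4:**
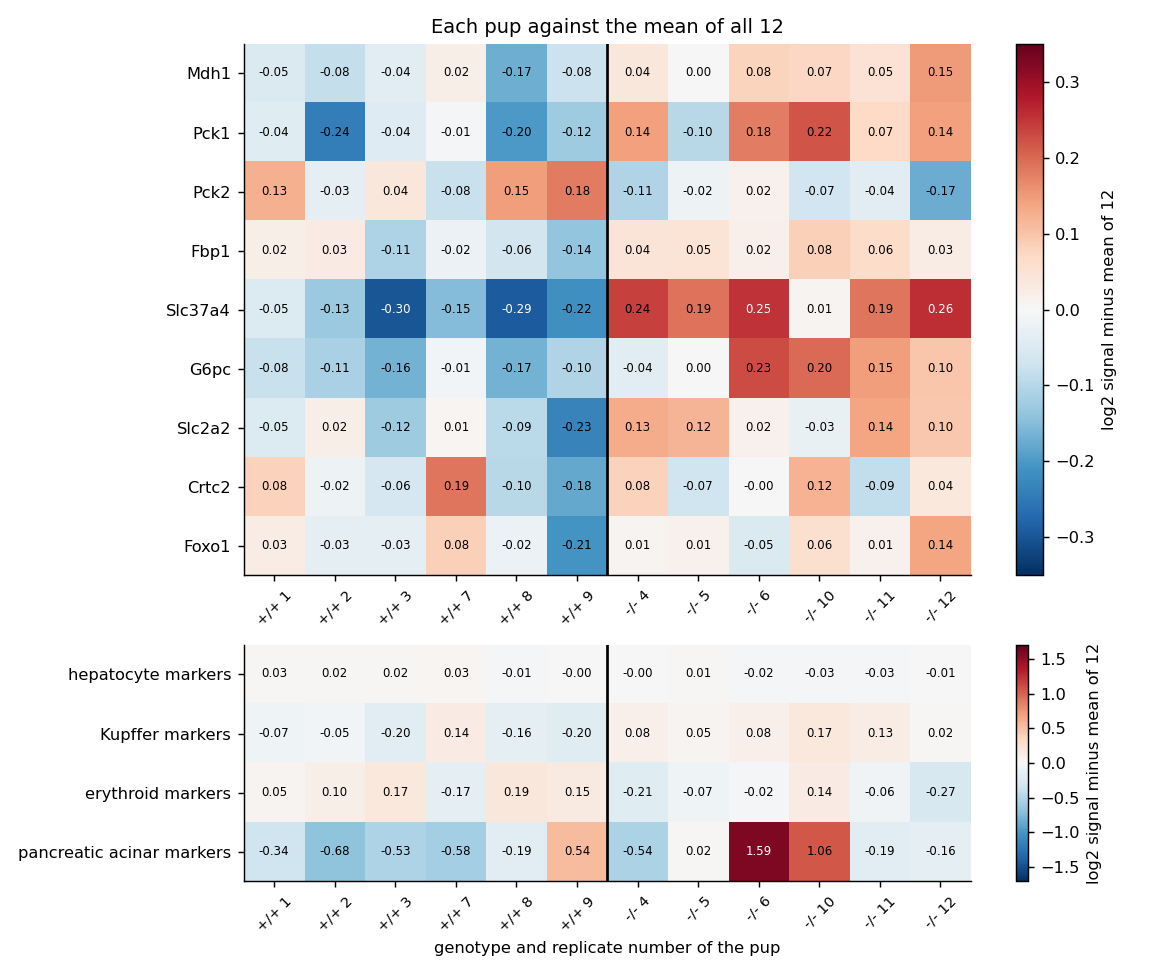
Log2 signal minus the mean of all 12 livers (colour and printed value) for the 9 genes (upper panel) and for the mean of 4 marker lists (lower panel), with 1 column per pup labelled by genotype and replicate number. Slc37a4 is below 0 in each Ppara+/+ liver and above 0 in each Ppara-/- liver, and the pancreatic acinar genes stand out in Ppara-/- replicates 6 and 10.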

How the data were processed

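Liver RNA of 12 pups at P2 was measured on 1 array each. The authors summarised the arrays by RMA (version not stated in the sources used here), from RNA with an integrity number above 8, and deposited 1 log2 signal for each probe set and array, which was taken as it stands. Of 35556 probe sets 21789 name 1 gene, 1621 several and 12146 none here; a gene was read from its brightest probe set that names it alone. All probe sets went into 1 linear model with terms for genotype and sex (limma 3.58.1 in R 4.3.3, lmFit then eBayes, 9 residual and 2.49 prior degrees of freedom), with Benjamini-Hochberg adjustment over all probe sets and calls at an adjusted p under 0.05. Genotype within each sex and the interaction came from a fit of 4 groups. The p-values treat pups as independent, although litters were shared and could not be entered as a block without their labels, and the number of arrays limits the precision. Pairs of genes were tested by exact permutation, and within-liver differences were described without a test. Starts, coordinates and promoters are those of RefSeq on GRCm38.p6. The code of the fits was run on simulated arrays with independent noise and no litters, a check that does not bear on the 9 genes.

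The 9 genes and all lists were chosen with earlier results of these data known, and most lie in a pathway that the study drew from these samples. Named were all 9, each called gene of a pathway list up to 5 per direction, up to 3 uncalled genes per list beside a step, and the 3 genes most like Slc37a4, Pck1 and G6pc. Alternatives were a fit without sex, a robust variance trend, array weights, median centring, quantile normalization, a filter at the 40th percentile of mean signal, a test of the 1-gene probe sets alone, an exact Mann-Whitney test, a change above 1.3-fold and leaving out each array; leaving out Ppara-/- replicates 6 and 10 and the within-liver comparisons were added after the data had been seen. Some genes of the lists are not reported here.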

Additional observations from a re-analysis of the deposited data

Results flagged for a closer look

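Of 18 groups of 6 livers (9 genes in 2 genotypes), 1 held a value far from the others of its group by Dixon's test, and chance gives about 1 in 20. It was Slc37a4 in Ppara-/- replicate 10, at 11.02 against 11.20 for the nearest other Ppara-/- liver, a gap of 0.72 of the range of the group. This array was also the second highest in pancreatic acinar signal; what sets its Slc37a4 value apart was not tested.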

How the results depend on the processing

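Slc37a4 kept its direction under all alternatives, with log2 differences of 0.35 to 0.41, and passed under each (adjusted p 0.00081 to 0.0111) except the exact Mann-Whitney test (adjusted p = 0.0691, the lowest any probe set can reach, from an unadjusted p of 0.0022). Under that test 0 of the 9 genes and 0 pathway genes passed in either direction, with 6 of the 9 at an unadjusted p under 0.05. With a robust variance trend, array weights, the filter on low signal or probe sets of 1 gene only, 2 of the 9 passed, the second being G6pc (adjusted p 0.021, 0.0282, 0.0272 and 0.0324). Leaving out 1 array gave 1 to 2 of the 9 higher and 0 lower. The 10 pathway genes called higher became 18 with array weights, 17 with the low-signal filter, 5 with a change above 1.3-fold and 7 to 15 without 1 array. The 4 called lower became 1 with a change above 1.3-fold, 2 without Ppara-/- replicates 6 and 10, and 2 to 4 without 1 array, with 2 in the absence of Ppara+/+ replicate 1, 3, 8 or 9 or of Ppara-/- replicate 4, 6 or 10. Crtc2 turned to -0.0088 without Ppara+/+ replicate 9 (adjusted p = 0.974, 0.509 to 0.99 over its alternatives); the cause was not tested. Its value was -0.0088 to 0.0727 over the arrays left out in turn. The Foxo1 difference was 0.02 without Ppara+/+ replicate 9 and 0.04 without Ppara-/- replicate 12. No other of the 9 genes changed direction. Each of the 9 has 1 probe set, so averaging or exchanging probe sets gave no other value. No paired analysis was possible because the labels do not name litters and the genotypes share no replicate numbers.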
